A study of Mus musculus with 4 samples.

Results

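Spots of the ventricle wall were picked out of 4 mouse brain sections by the transcripts of ependymal cells, and 80 of the 11064 deposited spots were taken. A spot here is a small area of a Visium slide whose RNA is captured together, so it can hold several cells of different types. Each spot was scored by the unique molecular identifiers (UMIs, each standing for 1 captured transcript) of Ccdc153 and Tmem212 per 10000 UMIs of the spot. Both genes are markers of ciliated ependymal cells. Spots had to hold at least 500 UMIs and fewer than 10 UMIs of Folr1, Clic6 and Kcne2 together, which are genes of the choroid plexus epithelium, and the 80 highest scores over all libraries were kept. The library labelled young vehicle held 32 of these spots, young ethanol 15, aged vehicle 21 and aged ethanol 12.

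The sections came from the left hemispheres of female C57BL/6 mice of the National Institute on Aging colony, cut coronally at 10 µm between bregma -2.0 and -2.2 after the meninges had been taken off. Young mice were 3 to 4 months old and aged mice 18 to 20 months old, and both ages were given either water, as vehicle, or ethanol at 3 g/kg into the stomach. There were 10 gavages on alternate days within 18 days, and tissue was collected 18 hours after the last. Each of the 4 pairings of age and gavage had 1 library, so a difference between libraries has no replicate check and carries no p-value.

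Ependymal cells form a single layer between the cerebrospinal fluid and the brain tissue, and their beating cilia move that fluid along the ventricle wall. A motile cilium is built on doublet microtubules that carry dynein arms, radial spokes and regulatory complexes, with a central pair in the middle, and its parts are delivered by intraflagellar transport. The transcription factor Foxj1 and the RFX factors switch on many of the genes for these parts, and RFX factors bind a palindrome called the X-box.

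Promoters of the cilia genes are shown first, because the results below turn on these genes and RFX factors are known to bind many of them. The 250 bases before each RefSeq start site (GRCm38.p6) were searched on both strands for the X-box arm GTTGCC, for the X-box palindrome (GTTNCC, then any 2 bases, then GGNAAC) and for the forkhead core TGTTTAC. A palindrome that begins with GTTGCC also counts as an arm. The arm was in 3195 of 27025 genes (11.8%), in 23 of 68 matched genes of the cilium axoneme (33.8%), in 8 of 19 matched ependymal markers (42.1%) and in 7 of 21 intraflagellar transport genes (33.3%). Among other lists it was in 4 of 16 choroid plexus genes, 1 of 10 myelin genes and 1 of 12 reactive astrocyte genes. The palindrome was in 120 of all genes (0.444%), in 3 of the 68 axoneme genes (Ccdc151, Cfap298 and Iqca) and in 1 of the 19 ependymal markers (Pifo). The window of Cfap298 is not shown. The forkhead core was in 3.54% of all genes, in 2 of the 68 axoneme genes and in 2 of the 19 ependymal markers, so its share in the axoneme genes (2.94%) was close to that of all genes. A match is a run of letters in this window, and binding was not measured. Windows around a match are given in the direction of the gene, with the matched letters in capitals. In the first 3 the capitals mark the palindrome, and from Dnah10 on they mark the arm on either strand.
Iqca, chr1:90153493-90153566 (minus strand): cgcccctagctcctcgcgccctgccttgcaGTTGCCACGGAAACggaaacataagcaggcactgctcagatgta
Pifo, chr3:106001498-106001547 (minus strand): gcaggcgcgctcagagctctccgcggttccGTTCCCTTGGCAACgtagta
Ccdc151, chr9:22002635-22002698 (minus strand): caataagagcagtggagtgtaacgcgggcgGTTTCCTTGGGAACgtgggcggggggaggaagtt
Dnah10, chr5:124725035-124725084 (plus strand): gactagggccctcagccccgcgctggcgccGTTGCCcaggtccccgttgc
Dynlrb2, chr8:116504934-116504999 (plus strand): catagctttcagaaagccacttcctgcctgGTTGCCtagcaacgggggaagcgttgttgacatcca
Hydin, chr8:110266934-110266976 (plus strand): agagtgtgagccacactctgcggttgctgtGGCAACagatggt
Enkur, chr2:21205366-21205429 (minus strand): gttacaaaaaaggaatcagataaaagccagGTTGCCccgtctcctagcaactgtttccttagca
Ccdc153, chr9:44240495-44240560 (plus strand): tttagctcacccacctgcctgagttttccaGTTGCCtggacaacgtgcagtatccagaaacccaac
The first base of the match lay 100 bases before the start site in Iqca, 20 in Pifo and 34 in Ccdc151. Ccdc153, one of the pair of genes that chose the spots, held an arm 152 bases before its start.

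The 80 spots were a small share of the spots with at least 500 UMIs in every library. The share was 1.18% in young vehicle (95% interval 0.807 to 1.66) and 0.521% in young ethanol (0.292 to 0.857). It was 0.777% in aged vehicle (0.482 to 1.19) and 0.454% in aged ethanol (0.235 to 0.792). These are exact Clopper-Pearson intervals, which cover counting error only and say nothing of where a section passed the ventricle. The spots held 464166, 215897, 275611 and 160029 UMIs per library, between 3546 and 25791 in a spot with a median of 14467.5. Mitochondrial transcripts were 10.7%, 10.4%, 9.0% and 12.3% of their UMIs, against 13.8%, 14.3%, 13.6% and 16.5% in the other spots. Of 4187 barcodes, 3481 occurred in more than 1 library, since barcodes name positions on the slide, and no barcode was an ependymal spot in more than 1 library.

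Scores ran from 4.18 to 25.1 per 10000 UMIs with a median of 9.12. The 3 spots just inside the limit scored 4.25, 4.23 and 4.18, and the 3 just outside it 4.18, 4.18 and 4.03, so the limit falls in a continuous range and not at a gap. Both genes had a UMI in 79 of the 80 spots. Summed over the chosen spots, Ccdc153 stood at 526, 445, 610 and 600 CPM (counts scaled to 1 fixed total for every sum) and Tmem212 at 552, 491, 541 and 619 CPM, with the vehicle and then the ethanol library of the young mice first and those of the aged mice after them, which is the order used throughout. In all other spots Ccdc153 lay between 2.57 and 5.10 CPM and Tmem212 between 2.13 and 3.92 CPM. These values chose the spots and are given as a description.

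Counts were summed over the ependymal spots of each library and set against 3 sums from the same library. These were all other spots (10862), the choroid plexus spots (77 with at least 10 UMIs of Folr1, Clic6 and Kcne2) and white matter spots (the 50 in each library with the most transcripts of the myelin genes Mobp, Mag, Mog and Opalin). A gene was called when the edgeR quasi-likelihood fit with library as a block gave a Benjamini-Hochberg adjusted p under 0.05 and at least a 2-fold difference. Because the spots were chosen on counts of the same libraries, calls and fitted values describe the chosen spots, and none is read as a test. Against all other spots, 1457 of 8730 genes were called higher (16.7%) and 1283 lower (14.7%). Against choroid plexus spots 754 of 8290 were called higher (9.10%) and 829 lower (10.0%), and against white matter spots 1102 of 8117 were called higher (13.6%) and 481 lower (5.93%). The higher calls against choroid plexus fell to 476 without the young vehicle library and to 418 with DESeq2.

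The label of ependymal ventricle wall was checked on 24 markers that took no part in the choice. Of all 24, 23 had more UMIs in the ependymal spots than their share of the other spots would give, and Sec14l3 had none. The same 23 were tested and called higher, with a median fitted log2 ratio of 5.16 beside -0.01 over all genes tested. For 19 of them that call was largely set by the filter, since they passed it only through their UMIs in the ependymal spots, so the count of calls and the median describe these genes and support nothing. Foxj1, the master regulator of motile ciliogenesis, stood at 231, 213, 272 and 325 CPM in the ependymal spots and at 7.14, 5.47, 6.56 and 6.94 CPM in the others. Its level in every library was far above that of the other spots, with log2 ratios from 5.01 to 5.55 and a fitted value of 5.34. Rarres2, which encodes the secreted protein chemerin, was at 879, 560, 849 and 769 CPM against 19, 15.1, 20.0 and 14.6 CPM. Dynlrb2, a dynein light chain, was at 368, 259, 374 and 281 CPM against 5.22, 2.88, 4.79 and 2.75 CPM, a fitted log2 ratio of 6.41.

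**Figure D1:**
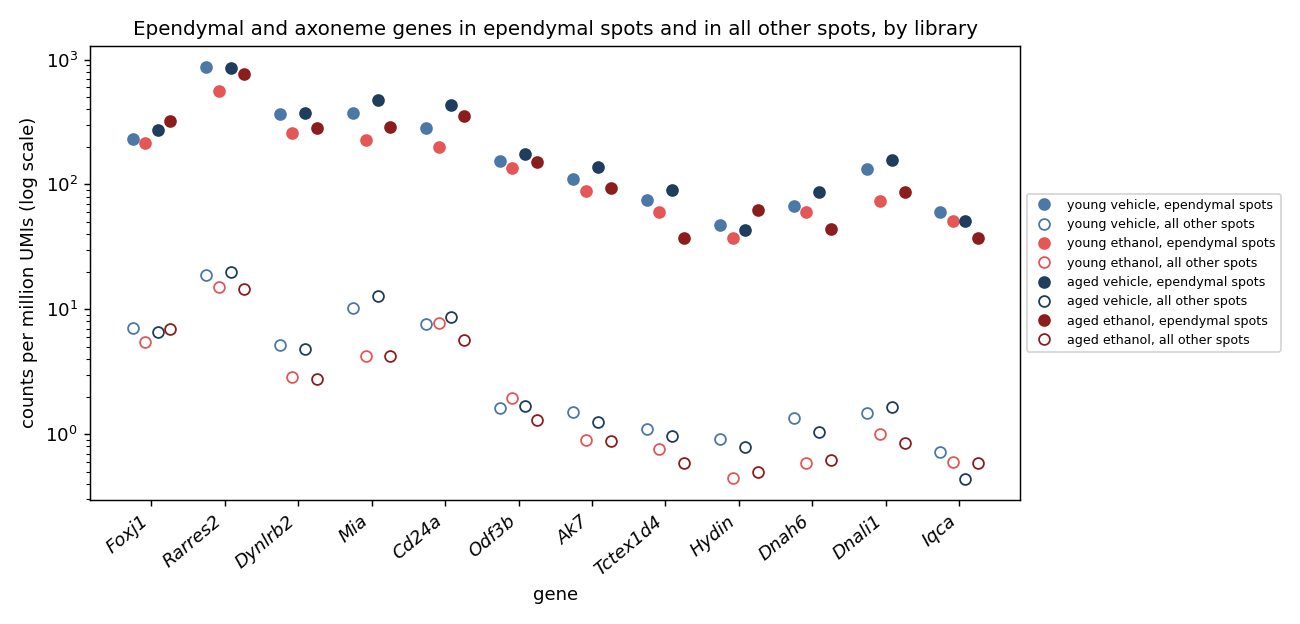
Levels of ependymal markers in CPM (log axis) by library, with filled points for the summed ependymal spots and open points for all other spots of that library. In each library the filled points lie above the open ones, as for Foxj1 at 213 to 325 CPM against 5.47 to 7.14 CPM.

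Shares of spots with a transcript were compared after each spot was thinned to 3500 UMIs, because median depth differed (14467.5 UMIs in ependymal, 6488.5 in white matter and 33828 in choroid plexus spots). Foxj1 then had a UMI in 50% of ependymal spots, 13.7% of white matter spots and 45.5% of choroid plexus spots. Rarres2 was found in 88.8%, 8.93% and 46.8%, and Dynlrb2 in 66.2%, 0.595% and 36.4%. Before thinning Foxj1 was in 88.8%, 23.0% and 87.0%, and Dynlrb2 in 87.5%, 2.50% and 85.7%. The white matter spots thus give a low level for both genes, whereas many choroid plexus spots also held ependymal transcripts. In white matter, 32 of the 200 spots were too shallow to thin.

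The ependymal signal was graded. Summed over the marker list, the 40 ependymal spots with the higher scores had a median of 89.1 UMIs per 10000 (37.7 to 161) and the other 40 a median of 42.0 (21.5 to 78.3). The next 80 spots by score had a median of 23.2 (4.53 to 177) and all other spots 6.83 (0 to 177), so the highest of the spots not chosen stood above every ependymal spot. Over the 80 spots higher scores went with higher list levels (Pearson 0.80, Spearman 0.83), as a description, since both come from the same spots. By library the median of the list was 74.3, 58.0, 72.6 and 58.1 per 10000, with ranges of 30.3 to 145, 21.5 to 90.8, 25.4 to 161 and 24.1 to 122. These ranges overlap widely, and each library held spots with a strong and with a weak signal.

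Genes of the motile axoneme were the other large group. Over 4 lists with 87 genes, 60 were tested (55 only through their UMIs in the ependymal spots), and 57 were called higher than in all other spots and none lower, with a median log2 ratio of 4.40. Over all genes tested 16.7% were called higher. For those 55 the call was largely set by the filter, so the counts of calls and the medians of these 4 lists support nothing. Counting every listed gene, 83 of 87 had more UMIs in the ependymal spots than their share of reads in the other spots would give, and the exceptions were Dnal1, Nme7, Pih1d1 and Pih1d3. The 27 genes too low to test had 308 UMIs together where 38.6 would be given by that share, and 26 of the 27 were above their share.

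Dynein arms are the motors of the cilium. Of 20 listed subunits 13 were tested, 12 of them only through their UMIs in the ependymal spots. Called higher were 12, with a median log2 ratio of 5.11. Of all 20, 19 had more UMIs than their share of the other spots would give. Dnah6, an inner arm heavy chain, was at 66.8, 60.2, 87.1 and 43.7 CPM against 0.585 to 1.36 CPM elsewhere (fitted log2 6.18), and Dnali1, a light intermediate chain, at 134, 74.1, 156 and 87.5 CPM (6.54). Proteins that assemble and dock the arms had a lower median of 2.74, with 8 of 9 tested genes called. Of those 9, 7 were tested only through the ependymal spots, and 14 of all 16 listed had more UMIs than their share. Several assembly factors, such as Pih1d1, are used by cells without motile cilia.

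Radial spoke and central pair genes, which set the bending of the cilium, were all called among the 14 tested, with a median of 4.78. Of the 14, 13 were tested only through the ependymal spots, and all 21 listed had more UMIs than their share. Rsph1, a spoke head protein, stood at 310, 227, 348 and 269 CPM against 4.72 to 8.57 CPM (5.52). Hydin, a large central pair protein whose loss causes hydrocephalus in mice, stood at 47.4, 37.0, 43.5 and 62.5 CPM against 0.448 to 0.917 CPM (6.14). In the nexin link and doublet microtubule list 23 of 24 tested genes were called higher, with a median of 4.44. There too 23 of the 24 were tested only through the ependymal spots, and 29 of all 30 listed had more UMIs than their share. Iqca, a nexin link protein whose promoter palindrome is given above, stood at 60.3, 51.0, 50.8 and 37.5 CPM, with a fitted log2 ratio of 6.48.

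Regulators and transport genes of cilia were listed apart, and their calls stand beside 16.7% of all genes called higher. In the list of multiciliation regulators 5 of 9 tested genes were called higher, with a median of 1.90: Myb, Foxj1, Trp73, Rfx2 and Rfx4. Of the 9, 7 passed the filter only through their UMIs in the ependymal spots, so the count and the median support nothing. Of all 16 listed, 12 had more UMIs than their share of the other spots would give. Mcidas, Cdc20b, E2f4 and Plk4 did not. Myb, a transcription factor of the early multiciliation program, stood at 34.5, 18.5, 21.8 and 18.7 CPM against 0.138 to 0.271 CPM (log2 6.99). Trp73, the p73 factor upstream of Foxj1, had a log2 ratio of 4.56. Rfx2 had one of 3.95, and its libraries ran from 1.98 in aged ethanol to 4.51. Of the intraflagellar transport genes, which also serve primary cilia on neurons and glia, 7 of 19 tested were called higher, led by Ift43 and Ttc30b. Their median was 0.96, and 7 of the 19 were tested only through the ependymal spots. Of all 25 listed, 22 had more UMIs than their share.

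The genes with the highest fitted ratio over all other spots were Akap14, Sntn, Gm44109, Prr29, Fam216b, Anxa8, Zfp474, Spag17, Gm10714 and Car9. Sntn, which encodes the tip protein sentan of motile cilia, stood at 144, 102, 178 and 181 CPM against 0.516 to 1.03 CPM, with log2 ratios of 7.13 to 8.38 in the 4 libraries. Akap14, an anchoring protein of ciliary protein kinase A, had a fitted log2 ratio of 7.87 and Spag17, a central pair protein, was also among these genes. At the other end were neuropeptide and other neuronal genes. Hcrt, the orexin peptide, had 1 UMI where its share in the other spots would give 102, Pmch had 10 where 182 would be given, and Avp 5 where 64.6 would be given.

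Markers of the neighbouring wall lineages differed between lists, where 16.7% of all genes tested were called higher and 14.7% lower. For tanycytes, the radial ependymal cells of the third ventricle floor, 2 of 7 tested genes were called higher (Scn7a and Nes) and 1 lower (Crym). The median log2 ratio was 0.01, and 2 of the 7 were tested only through their UMIs in the ependymal spots. With so few genes beside those shares, the tanycyte counts are not a result about the list. Of all 16 listed, 7 had more UMIs than their share of the other spots would give. Rax, a defining tanycyte factor, had 2 UMIs, both in young ethanol. In the list of neural stem cell and neuroblast genes 5 of 7 tested genes were called higher: Thbs4, Cd9, Prom1, Sox4 and Hopx. Of the 7, 3 were tested only through the ependymal spots, and of all 19 listed 15 had more UMIs than their share. Summed, that list of 19 genes stood at 950, 787, 1074 and 869 CPM in the ependymal spots, against 304 to 362 CPM in the others. Thbs4, which encodes a thrombospondin found in astrocytes of the ventricle wall, stood at 97.0, 64.8, 160 and 106 CPM against 5.56 to 6.73 CPM. In the list of apical junction and transport genes 11 of 17 were called higher (median 1.43). Ezr, the apical cytoskeleton linker ezrin, stood at 205, 208, 265 and 200 CPM against 36.2 to 43.0 CPM. For planar polarity, the system that aligns beating cilia, Celsr1 and Vangl1 were called higher and 3 genes lower of 7 tested. The median was -0.35, and 2 of the 7 were tested only through the ependymal spots, so these counts are not a result about the list either. Of all 11 listed, 6 had more UMIs than their share. Celsr1 ran from a log2 ratio of 2.40 in aged ethanol to 3.57, with a fitted value of 3.42.

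The choroid plexus also carries Foxj1 cells and borders the ventricle, so it was the closest comparison. Over all genes tested, 9.10% were called higher than in choroid plexus spots. Of 23 tested ependymal markers 9 were called higher than in choroid plexus spots: Meig1, Enkur, S100b, Fam183b, Rarres2, Cd24a, Odf3b, Tppp3 and Nnat. The median of the list was 0.77, beside 0.03 over all genes tested, and 16 of the 23 were higher in all 4 libraries. Nnat, the small membrane protein neuronatin, showed the largest fitted log2 ratio of these, 1.99, at 1836, 936, 1517 and 1206 CPM against 299, 389, 202 and 225 CPM. Rarres2 stood at 215, 400, 177 and 212 CPM in the choroid plexus spots, below the ependymal spots in every library. Mia, in contrast, was at 299, 256, 372 and 198 CPM there, with a fitted log2 ratio of -0.08.

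Axoneme genes were then compared between the same sets of spots. Of 61 tested, 20 of them only through the ependymal spots, 12 were called higher and Drc7 lower, beside 9.10% of all genes called higher. The median log2 ratio was 0.35, and 78 of all 87 had more UMIs than the choroid plexus spots would give. The choroid plexus list lay in the other direction, which the choice of spots had built in. All 18 of its genes that the choice did not use were called lower, where 10.0% of all genes were, with a median of -4.50. The sets were chosen on either side of 10 UMIs of Folr1, Clic6 and Kcne2, so these calls support nothing. Tmem72, a choroid plexus membrane protein, had no UMI in the ependymal spots and was at least 67.4-fold lower. In the meninges list 8 of 9 tested genes were called lower (median -2.65), while all 12 myelin genes (median 1.36) and 9 homeostatic astrocyte genes (median 1.26) were called higher.

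Ttr, the transthyretin made in bulk by choroid plexus, could not be placed relative to the other tissue. It stood at 9197, 5063, 6916 and 5430 CPM in the ependymal spots, against 4605, 1212, 5609 and 1676 CPM in all other spots, a fitted log2 ratio of 1.32. When ependymal spots had to hold fewer than 3 UMIs of the choroid plexus genes instead of fewer than 10, that ratio turned to -0.89. The chosen spots held 54, 25, 40 and 16 UMIs of those genes, from 0 to 9 in a spot. Ttr from a nearby choroid plexus and Ttr of ependymal cells cannot be told apart in these spots.

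White matter spots served as a comparison rich in glia, against which 13.6% of all genes tested were called higher and 5.93% lower. Of all 24 ependymal markers 21 had more UMIs than white matter would give, and of all 87 axoneme genes 86 had, with Pih1d3 as the exception. Of 23 tested ependymal markers, 17 of them tested only through their UMIs in the ependymal spots, 21 were called higher, with a median log2 ratio of 4.64 beside 0.01 over all genes, and the exceptions were Tppp3 (-0.31) and S100b (-0.87). White matter held these 2 genes at 669 to 963 and at 785 to 1087 CPM. Of 60 tested axoneme genes, 58 of them tested only through the ependymal spots, 57 were called higher, with a median of 4.54, or of 4.14 when 12 genes with no UMI in white matter are set at their bound. Sntn had no UMI in the 200 white matter spots, which makes it at least 73.8-fold higher in the ependymal spots. In the same way Cfap161 was at least 42.9-fold, Cdhr3 34.5-fold, Dnah6 33.2-fold and Krt15 26.5-fold higher. All 8 tested myelin genes were called lower than in white matter, with a median of -1.36. White matter spots were ranked on Mobp, Mag, Mog and Opalin, so the choice built in that direction and these calls support nothing.

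**Figure D2:**
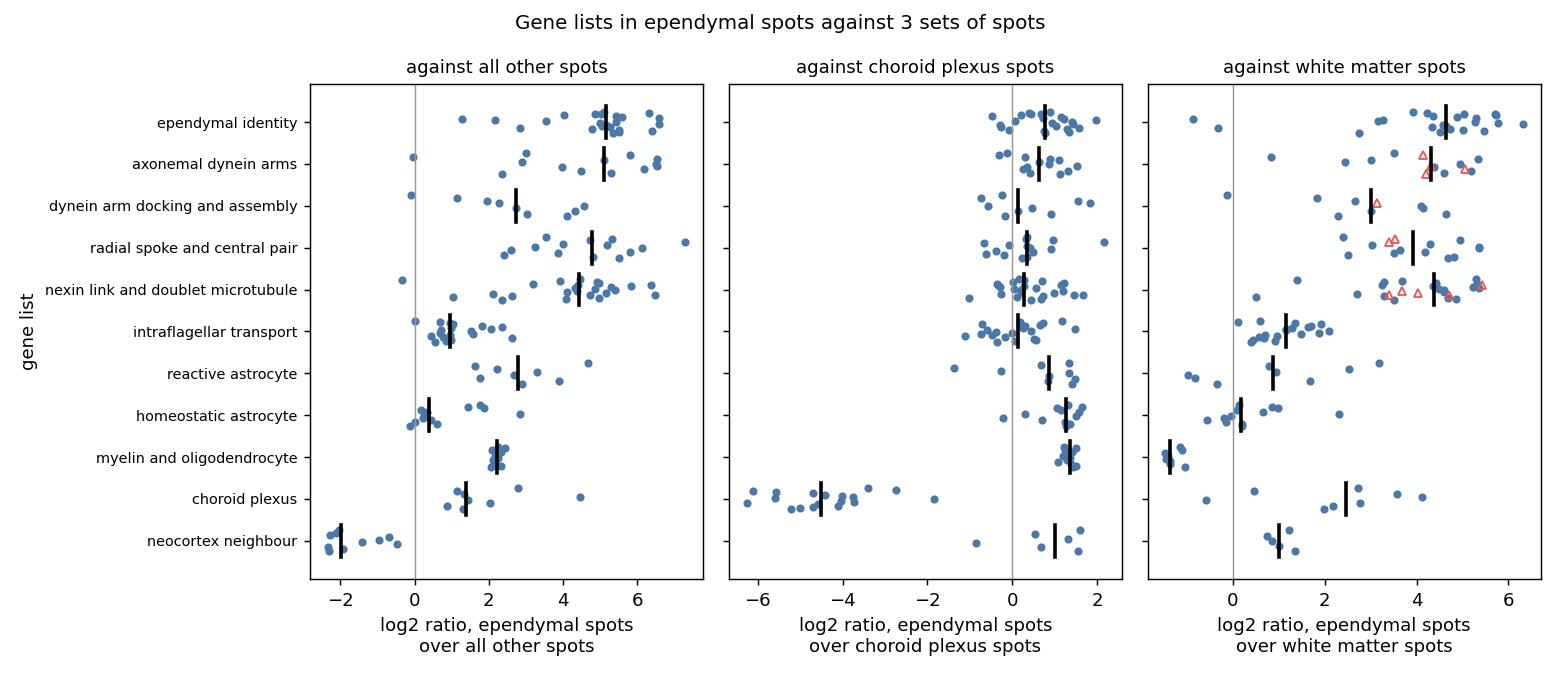
Fitted log2 ratios of the genes of each list in the ependymal spots over all other spots, choroid plexus spots and white matter spots. Each dot is a gene, a red open triangle is a gene at its bound, where the other spots had no UMI, and the bar is the median of the list. Ependymal markers have a median of 5.16 over all other spots, 0.77 over choroid plexus and 4.64 over white matter.

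Reactive and homeostatic astrocyte genes differed at the wall. All 8 tested genes of the reactive list were called higher than in all other spots, with a median log2 ratio of 2.79. Of these 8, 3 passed the filter only through their UMIs in the ependymal spots. Of all 15 listed, 14 had more UMIs than their share of the other spots would give. Of 12 homeostatic astrocyte genes 4 were called higher (Sox9, Mlc1, Aqp4 and Gja1) and 8 were not, with a median of 0.38, where 16.7% of all genes were called higher. Vim, the filament vimentin that ependymal cells also make, stood at 366, 732, 468 and 744 CPM against 33.3 to 43.5 CPM. Gfap, the astrocyte filament, stood at 356, 829, 541 and 794 CPM against 59.3 to 105 CPM. Against white matter only Cd109, Cp and Vim of the 8 were called higher, and Gfap had a fitted log2 ratio of -0.34. Vim had one of 1.69 there, with white matter at 59.4, 305, 63.1 and 257 CPM.

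Some genes from lists of other cell types were also above the rest of the section, where 16.7% of all genes were called higher. All 12 myelin genes were called higher (median log2 ratio 2.21), as were 9 of 16 microglia genes (median 1.10) and 7 of 8 tested choroid plexus genes (median 1.38). P2ry12, Tmem119, Cx3cr1 and Csf1r were among the 7 microglia genes that were not called. Acta2, an actin of smooth muscle, was the 1 gene called in the endothelial and mural list, at 142, 69.5, 192 and 112 CPM against 11.7 to 26.1 CPM. Of all 12 genes of that list 5 had more UMIs than their share. Cldn5, Ly6c1, Flt1, Pecam1, Myh11, Rgs5 and Kcnj8 did not, and which cells held Acta2 was not tested. Lists of hypothalamus (6 of 7 tested), neocortex (7 of 10) and hippocampus (5 of 8) had genes called lower, with medians of -1.45, -1.99 and -1.41. In the lists of interferon response genes 5 of 6 tested were called higher (median 2.07), of disease-associated microglia genes 7 of 10 (1.38) and of antioxidant genes 8 of 16 (0.94). Of these tested genes 4, 2 and 1 passed the filter only through their UMIs in the ependymal spots, as did 3 microglia and 3 choroid plexus genes. Their calls were largely set by the filter and support nothing. Of all listed genes, 12 of 13 interferon, 14 of 16 disease-associated microglia and 15 of 18 antioxidant genes had more UMIs than their share. Beside white matter, 1 of 16 microglia, 4 of 16 disease-associated microglia and 9 of 13 interferon genes had more UMIs than white matter would give. Beside choroid plexus, where 9.10% of all genes were called higher and 10.0% lower, 3 of 16 microglia genes were called higher. There 0 of 6 interferon and 0 of 11 disease-associated microglia genes were called higher, and 2 in each list lower. Of the ethanol and aldehyde metabolism genes, 1 of 6 was called higher than in all other spots, Aldh9a1, with a median of 0.82. Aqp4, the water channel of astrocyte endfeet and ependymal cells, stood at 142, 255, 218 and 169 CPM against 48.9 to 64.1 CPM. Mt1, a metallothionein that binds zinc, was at 5769, 6827, 5381 and 6224 CPM against 1719 to 2132 CPM.

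What lay beside the wall differed from spot to spot. For each spot the leading neighbour was taken as the list, of 9, that stood highest against its median over all spots. Myelin led in 36 ependymal spots and choroid plexus in 30, meninges in 6, habenula in 5, and hypothalamus, thalamus and striatum in 1 each. In order these were 45%, 37.5%, 7.5%, 6.25% and 1.25% for each of the last lists. Among all other spots they led in 12.9%, 9.47%, 7.37%, 3.04%, 14.1%, 17.4% and 7.76%. The share led by meninges was thus close to that elsewhere. Neocortex and hippocampus led in 0 ependymal spots, against 19.3% and 8.64% of the others. Choroid plexus led in 10, 5, 13 and 2 spots of the 4 libraries. The 5 habenula-led spots were 3 in young ethanol and 2 in aged ethanol, so none came from a vehicle library.

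**Figure D3:**
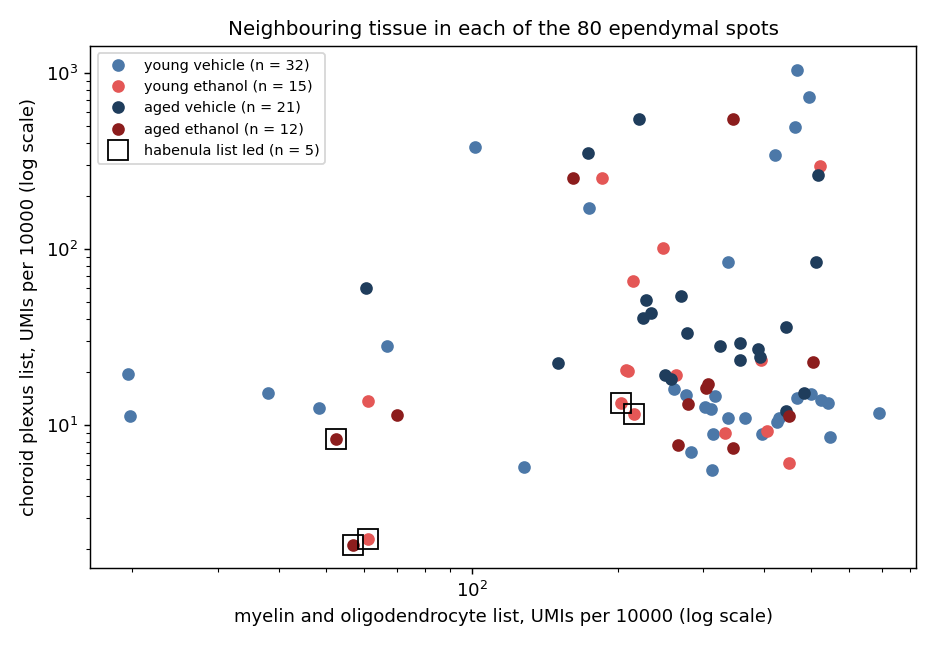
Each ependymal spot by its UMIs of the myelin list and of the choroid plexus list per 10000 UMIs, with the libraries marked and squares for the 5 spots led by habenula genes. Spots with the most choroid plexus transcripts reached 1038 per 10000 in young vehicle, and most spots carried many myelin transcripts.

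The myelin list had medians of 327, 216, 277 and 292 UMIs per 10000 in the 4 libraries, with ranges of 19.6 to 690, 61.1 to 521, 60.6 to 517 and 52.4 to 504. The choroid plexus list had medians of 13.6, 19.3, 33.6 and 12.4, and its highest spots reached 1038, 294, 547 and 543. The ranges of the 4 libraries overlapped in both lists, and the choroid plexus list reached furthest in young vehicle and least far in young ethanol. The habenula genes, summed over the ependymal spots, stood at 34.5, 621, 18.1 and 387 CPM, against 89.4, 136, 96.8 and 131 CPM in the other spots. In young ethanol 1 spot held 64.9% of them, and in aged ethanol 1 spot held 53.2%. Both ethanol libraries were therefore above both vehicle libraries in tissue of the habenula, a nucleus next to the third ventricle, before any gene was compared between them.

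Between the libraries, ratios of summed CPM were taken with exact conditional binomial 95% intervals, which cover counting error only. A gene met the rule of size when it differed by at least 2-fold and the library with more of its UMIs held at least 50. Between young ethanol and young vehicle 21 of 1490 genes were higher (1.41%) and 31 lower (2.08%), and between aged ethanol and aged vehicle 11 of 810 were higher (1.36%) and 12 lower (1.48%). Between aged and young vehicle 3 of 1486 were higher (0.202%) and 8 lower (0.538%), and between aged and young ethanol 2 of 579 were higher (0.345%) and 9 lower (1.55%). Counts of this size moved with the setting: without the spot that held most UMIs of each gene, 61 genes were lower in the young gavage pair and 24 in the aged one. Age, gavage, section plane and library cannot be separated in any of these pairs.

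No marker of the ependymal list met the rule in any of the 4 comparisons, among 17, 12, 17 and 8 with enough UMIs. With the shares over all genes given above, from 0.202% to 2.08% in a direction, lists of this size would hold about none, so these counts are not a result about the markers. Median log2 ratios were -0.25 and -0.22 for ethanol over vehicle in young and aged, and 0.19 and 0.24 for aged over young under vehicle and ethanol, beside -0.11, -0.14, -0.01 and -0.04 over all genes tested. In all other spots the same list had medians of -0.38, -0.45, 0.07 and 0.02. The medians in the ependymal spots thus had the signs of those in the rest of the section. Foxj1 in young ethanol was 0.924 times its level in young vehicle (0.639 to 1.32) and 1.19 times in the aged pair (0.822 to 1.72), and both intervals include equal counts.

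Single ependymal genes differed in the young pair by intervals that leave out equal counts, without reaching 2-fold. S100b, a calcium-binding protein also made by astrocytes, was higher with ethanol, at 1.80 times (1.46 to 2.22) in the young pair and 1.64 times in the aged pair (1.25 to 2.13). The others were lower. Closest to it were Nnat at 0.510 times (0.435 to 0.595) and 1110017D15Rik at 0.534 times (0.360 to 0.773), which were at 0.795 and 0.514 times in the aged pair. Rarres2 was at 0.638 times (0.516 to 0.783) and Dynlrb2 at 0.704 times (0.511 to 0.957) in young ethanol over young vehicle. In the aged pair the ratios were 0.905 and 0.752. Mia, an extracellular protein, was at 0.609 times in both pairs, and Cd24a, a surface glycoprotein, at 0.700 times (0.484 to 0.995) in the young pair. The intervals hold for counting error between 2 libraries and leave out the spread between mice, which was not measured. Over the whole marker list the young pair had a median log2 ratio of -0.25 in the ependymal spots and -0.38 in the other spots. The score that chose the spots had a median of 10.1 in young vehicle and 8.13 in young ethanol. In the aged libraries it was 11.2 and 8.57. Its part in these ratios was not tested.

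At both ages 6 genes were higher in ethanol: C4b, Gabbr1, Pcp4, Hba-a1, Hba-a2 and Hbb-bs. They were 28.6% of the genes higher in the young pair (1.41% of all tested) and 54.5% of those in the aged pair (1.36%), with 808 genes tested in both. No gene was lower in both, which says little where 2.08% and 1.48% of genes were lower. C4b, a complement component, had 26, 133, 39 and 85 UMIs, or 56.0, 616, 142 and 531 CPM. Both ethanol libraries were above both vehicle libraries, 11-fold in the young pair (7.18 to 17.4) and 3.75-fold in the aged pair (2.54 to 5.63). The transcripts were spread over the wall, in 16 of 32, 13 of 15, 15 of 21 and 11 of 12 spots. C4b was also higher with ethanol in all other spots, 4.84-fold and 3.19-fold, and in white matter spots, at 94.4, 1521, 174 and 768 CPM. The ependymal spots followed the rest of the section in this gene, and whether the wall differed from it was not tested.

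**Figure D4:**
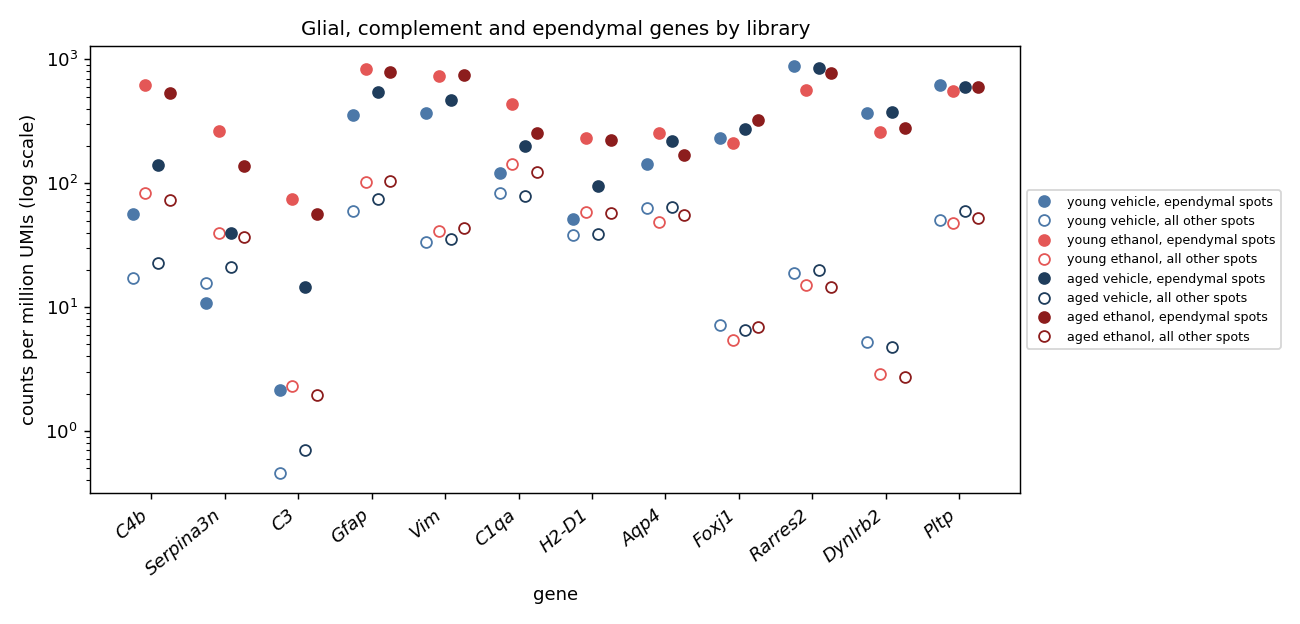
Levels in CPM (log axis) of glial, complement and ependymal genes by library. Filled points are the summed ependymal spots and open points all other spots of the same library. The ependymal markers shown, such as Foxj1 and Rarres2, did not meet the rule of size. C4b lies at 56.0 and 142 CPM in the vehicle libraries and at 616 and 531 CPM in the ethanol libraries.

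Glial and immune lists were also counted in the young pair, where 1.41% of all genes tested met the rule as higher. Of the tested reactive astrocyte genes 3 of 5 met the rule as higher (median log2 ratio 1.22), of the microglia genes 4 of 6 (1.31) and of the complement and antigen presentation genes 3 of 3 (2.16), with C4b counted in the first and the last of these lists. Of the homeostatic astrocyte genes 0 of 9 met it (median 0.04) and of the disease-associated microglia genes 0 of 5 (0.52). Serpina3n, a protease inhibitor of reactive astrocytes, had 5, 57, 11 and 22 UMIs in the 4 libraries, a 24.5-fold ratio in the young pair (9.91 to 78.4) that rests on few transcripts. Its ratio in all other spots was 2.54. Gfap was 2.33-fold higher (1.88 to 2.90), against 1.73-fold in the other spots. C1qa, a chain of the complement C1q protein of microglia, was 3.65-fold higher, against 1.72-fold elsewhere. H2-D1, an antigen-presenting class I protein, was 4.48-fold higher, against 1.53-fold elsewhere.

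The aged pair showed fewer such genes. Of the tested reactive astrocyte genes 1 of 4 met the rule (median 0.61), of the microglia genes 0 of 5 (0.17) and of the complement genes 1 of 2 (1.43). Over all genes tested 1.36% were higher. C4b was the gene that met the rule in both lists. With 39 UMIs in aged vehicle and 85 in aged ethanol, it entered only through aged ethanol, so these counts support nothing. Gfap was 1.47-fold higher with ethanol (1.15 to 1.87), close to its 1.39-fold ratio elsewhere. Myelin genes met the rule in neither pair, 0 of 12 and 0 of 11. Whether the young and aged pairs differ was not tested, because each has 1 library a side.

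Several of the largest ratios sat in few spots. In the young pair Tac2 was 23.4-fold, Calb2 21.5-fold and Necab2 9.97-fold higher with ethanol, all genes of the habenula or other neurons, and 1 spot of young ethanol held 71.3%, 47.1% and 58.8% of their UMIs there. Without the 5 habenula-led spots, Pcp4 in the young pair turned to a log2 ratio of -0.33 and Gabbr1 in the aged pair to -0.26. Haemoglobin genes, which mark blood, were 14.2-fold (Hba-a1), 10.8-fold (Hbb-bt), 10.4-fold (Hba-a2) and 10.2-fold (Hbb-bs) higher in young ethanol, against 1.66 to 2.00-fold in its other spots. S100a8, a protein of neutrophils, had 28 UMIs, all in 3 young ethanol spots, and 18 were in 1 spot. Ptgds, a prostaglandin synthase of meninges and glia, was 2.32-fold higher, with 52.8% of its UMIs in 1 spot. Their part in the other ratios of the young pair was not tested.

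In the aged pair the leading gene was Lars2, at 94.3 CPM in vehicle and 881 CPM in ethanol, 9.34-fold (6.11 to 14.8). Gm42418 (5.21-fold) and mt-Atp8 (2.94-fold) were also higher, and all 3 were higher in the other spots as well, by 2.88, 2.62 and 2.10-fold. Lars2 and Gm42418 reads are often taken as carry-over of ribosomal RNA, whose share of UMIs was 0.243%, 0.440%, 0.139% and 0.759% in the ependymal spots. Lower with ethanol were the neuropeptide Sst (5.01-fold), Ly6h (4.42-fold), Mat2a (3.29-fold) and Tsc22d3 (2.32-fold), a glucocorticoid-induced gene. Sst had 95 UMIs in aged vehicle, of which 1 spot held 36.8%, and 11 in aged ethanol.

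With age under vehicle Ucma, a matrix protein of cartilage, was 5.58-fold higher (3.30 to 9.88), at 19 UMIs in young and 63 in aged, of which the top spot held 23.8%. In all other spots its ratio was 1.16. Under ethanol Ucma had 16 UMIs in young and 14 in aged, of 215897 and 160029 UMIs of the ependymal spots. These are too few for the rule of size, so the age ratio under vehicle was not shown under ethanol. Sst (2.25-fold) and Abat (2.03-fold), an enzyme of GABA breakdown, were the others that were higher. For Sst 1 spot held 49.3% of the UMIs in young vehicle and 1 spot 36.8% in aged vehicle. Lower in aged mice under both gavages were the haemoglobin genes Hba-a1, Hba-a2, Hbb-bs and Hbb-bt, which were 4 of the 8 genes lower under vehicle and 4 of the 9 under ethanol. Lars2 was 2.95-fold lower with age under vehicle and 2.04-fold higher under ethanol. Calb2 and Tac2 were 3.46-fold and 2.69-fold lower in aged than in young ethanol, genes that rest on the habenula-led spots of those libraries. The comparisons within 1 age and those within 1 gavage share their libraries.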

How the data were processed

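Visium libraries of 4 mouse brain sections were used as deposited UMI counts of 32285 genes in 11064 spots. Space Ranger 1.3.1 is named per the file headers, while the submitters' processing notes name Space Ranger 2.0.0 and mm10; the annotation release was not given in the sources used here. From these counts sums per library and set of spots were tested with edgeR 4.0.16 in R 4.3.3 (quasi-likelihood, TMM, library as a block), on genes with at least 20 UMIs measured or expected in the ependymal spots, leaving out the genes that chose the spots. DESeq2 1.42.0 was an alternative. The fit was tested on simulated data: at log2 changes of 1.5 and 3 it called 88.0% and 100% of changed genes against all other spots, 84.0% and 100% against choroid plexus and 72.0% and 97.0% against white matter. A count of 0 was replaced by 3 UMIs for bounds. The replicate unit is the library, and labels do not tie it to animals. Named genes were the 10 highest and 10 lowest called, up to 4 called members of each list, the ependymal markers, and between libraries the 10 largest ratios and those shared by both pairs. Ependymal spots and gene lists were chosen with earlier results of these data known. No doublet caller was run and no spot position was used.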

Additional observations from a re-analysis of the deposited data

Results flagged for a closer look

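In 8 of 288 checks over genes and comparisons, 1 library lay far from the other 3. The value checked was the log2 ratio of ependymal spots over another set. About 1 in 20 groups would be flagged so by chance, and the 8 flags found are fewer than that share. Against all other spots these were Cd52 (young ethanol, 1.96), Celsr1 (aged ethanol, 2.40), Ctss (aged vehicle, 1.75), Mlf1 (young ethanol, 5.80), Myb (aged ethanol, 6.11) and Trem2 (aged ethanol, 1.57). Against white matter spots they were Aqp4 (young ethanol, 1.13) and Car2 (young ethanol, -1.31).

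Lars2 had a log2 ratio of aged over young of -1.56 under vehicle and 1.03 under ethanol, which are opposite directions. That difference was not tested, since each group has 1 library.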

How the results depend on the processing

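Without a minimum fold, the calls against all other spots were 2370 higher and 2320 lower, 1205 and 1290 against choroid plexus, and 1119 lower against white matter. With at least 50 UMIs they were 822 and 743, 473 and 491, and 529 and 299, and with no filter 1974 lower against all other spots. DESeq2 gave 418 higher against choroid plexus and 632 and 297 against white matter. Without 1 library in turn the counts ran from 1127 to 1374 and 968 to 1193, from 476 (without young vehicle) to 796 and 598 to 806, and from 744 to 928 and 412 to 475. The fit with no replicate block gave 1445 and 1263, 721 and 812, and 1048 and 458. No paired analysis was possible between libraries because each group has 1 library.

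Between libraries, at least 20 UMIs gave 70 higher and 250 lower in the young gavage pair, 41 and 197 in the aged pair, 51 and 123 with age under vehicle, and 27 and 85 under ethanol. At least 100 UMIs gave 9 and 8, 6 and 0, 0 and 5, and, under ethanol, 4 lower. Taking the 60 highest spots gave 13 higher in the young pair, and 5 and 14 with age under vehicle. Taking the 120 highest, 24 of them in aged ethanol, gave 24 and 35 in the aged pair, 8 higher with age under vehicle and 5 lower under ethanol. Fewer than 3 choroid plexus UMIs gave 18 and 24 in the aged pair, 6 higher with age under vehicle and 5 lower under ethanol. At least 5000 UMIs a spot gave 19 lower in the aged pair, and Tmem212 alone 14 lower with age under vehicle. Equal weights for spots gave 20 lower in the aged pair, 13 lower with age under vehicle and 1 higher under ethanol. Without the spot with most UMIs of each gene 61 were lower in the young pair, 24 in the aged pair and 14 with age under vehicle. Without the habenula-led spots, a setting chosen after seeing the data, 21 were lower in the aged pair.

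Directions turned for Ttr with fewer than 3 choroid plexus UMIs, to -0.89 against all other spots and -0.17 against white matter. In aged over young ethanol Calb2 turned to 0.085 and Tac2 to 0.15 at that limit, and Tac2 to 0.14 with at least 5000 UMIs and 0.98 with Tmem212 alone. Pcp4 (young pair, -0.33) and Gabbr1 (aged pair, -0.26) turned without the habenula-led spots. The cause was not tested. Of the other values of named genes, 6606 kept direction and side of the threshold, 279 lost and 49 gained the call. The libraries held 12 to 32 ependymal spots, and the minimum of 50 UMIs for a ratio was a choice.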
